A study of Mus musculus with 16 samples.

Results

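5-hydroxymethylcytosine (5hmC) was read across the genome of T cells that had been turned into induced regulatory T cells (iTreg) with TGFβ, by setting 2 pull-down libraries against the 2 input libraries of the same DNA. These 4 libraries are 4 of 16 in the study. TET enzymes make 5hmC by oxidising methylated cytosine, as a step on the way to unmethylated DNA, and in T cells it lies mainly over transcribed genes and active enhancers. Treg depend on the transcription factor Foxp3, whose gene and partners lose DNA methylation as the cells commit. TGFβ induces Foxp3 in activated naive CD4 cells, and such iTreg are known to keep more methylation at Treg loci than Treg from the body.

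The donors were C57BL/6 Foxp3-eGFP reporter mice aged 5 to 6 weeks, whose spleen and lymph nodes gave the cells and in which green fluorescent protein marks Foxp3 expression. TGFβ iTreg were differentiated from naive CD4 cells with TGFβ. The other groups, each again with 2 pull-downs and 2 inputs, were naive cells (CD4+, eGFP-, sorted on surface markers of the naive state), sorted Treg (CD4+, eGFP+), and iTreg to which RA (retinoic acid) and VitC (vitamin C) had been given on top of TGFβ, or RA+VitC iTreg. No group was cultured without TGFβ, so culture and TGFβ cannot be told apart, and neither can RA and VitC. The labels do not say whether iTreg were sorted on eGFP, nor whether the replicates came from separate mice or cultures, so p-values measure only the spread between these libraries.

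The assay was CMS-IP, in which bisulfite converts 5hmC to CMS (cytosine-5-methylenesulfonate) and anti-CMS serum captures fragments with that base. Input is DNA set aside before the pull-down. Reads were counted in 177720 regions, the union of broad peaks of the study, on build mm9. Values are the log2 ratio of pull-down to input, each in reads per 1000000 reads in regions (CPM) scaled by TMM. A value of 0 therefore stands for a typical region of the union and not for DNA without 5hmC, and the total amount of 5hmC is not measured.

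The TGFβ iTreg pull-downs held 1648804 and 2114056 reads in regions and their inputs 1107547 and 1230508. Each pull-down thus had 1.49 and 1.72 times the reads of its input, below the 3.14 to 3.88 of RA+VitC iTreg and the 4.9 to 6.39 of sorted cells. Inputs of all groups held 1028822 to 1563165 reads, so the low ratio goes with shallow pull-downs, and whether it comes from less 5hmC or from less sequencing cannot be told apart. The 10% of regions that were best covered in each library took 55.3% and 57.3% of the pull-down reads and 43.6% and 43.4% of the input reads. A region without reads can still stand at up to 3 reads, which is 1.82 and 1.42 CPM in these pull-downs. Such limits cover counting error only.

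Enrichment over input was seen at 9399 of the 74413 regions with at least 20 reads in all (12.6%), and 2498 (3.36%) were lower than input, by edgeR's quasi-likelihood test at an adjusted p under 0.05. The split depends on the scaling. With library size in place of TMM 6272 regions were higher and 8542 lower, which takes the higher share of called regions from 79% to 42.3% and shifts the median of all regions by -0.33. For genes the counts were 1777 higher and 3315 lower, with a shift of -0.21. All values are therefore best read relative to the median of all regions (-0.07) or genes (-0.02). In reads summed per gene, 2605 of 13881 genes were higher (18.8%) and 1315 lower (9.47%), and 800 and 196 of these by at least 2-fold. DESeq2 called 3708 regions higher and 19 lower, and 1433 and 244 genes. Without the second pull-down, the first input or the second input, the lower regions came to 915, 1111 and 1039 and the lower genes to 860, 775 and 720, and without the second input the higher regions came to 6080. The log2 values of the replicate pairs correlated across 3735 genes with a mean of at least 100 reads at r = 0.907. Genes are not independent replicates.

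The share of regions called higher rose with read depth, and so did the log2 value. Among regions with 20 to 40 reads over the 4 libraries the median SE was 0.58, the median log2 -0.26 and 3.02% were called higher, against an SE of 0.17 and 83.3% in the 1080 regions with over 400 reads. Those deep regions had a median log2 of 1.04. Called lower were 3.47% of the regions with 20 to 40 reads and 0.185% of those with over 400. Of the 2498 lower regions, 1366 had 20 to 40 reads. Depth here includes the pull-down reads, so the part of depth and that of enrichment in the calls cannot be told apart. As background, the inputs of TGFβ iTreg set against the other 6 inputs gave 1 higher region (0.00134%) and 0 lower by edgeR, with 3697 regions at an unadjusted p under 0.05.

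Regions that hold an annotated transcription start carried more of the pull-down than of the input reads. The log2 ratio of their share of reads was 0.34 and 0.41 in the replicate pairs over all 4368 such regions, and 0.11 and 0.15 at 0 to 2 kb downstream. It was -0.10 and -0.11 at 5 to 10 kb downstream and -0.19 and -0.22 more than 100 kb downstream. Regions on a start were also wider, with a median of 2417 bp against 1264 bp at 0 to 2 kb downstream. The median was 755 bp at 5 to 10 kb and 602 bp beyond 100 kb. Ratios also differed by width, as given below, and the part of width in this order was not tested. Of the tested regions with a start, 1469 could be matched, by gene symbol, to 1 promoter of 300 bases (250 before and 50 after the start) in RefSeq, build GRCm38.p6. Regions are on mm9, so whether the RefSeq start is the one inside the region was not checked by position. Grouped by the number of CG dinucleotides in that promoter, the regions with 0 to 3 and 4 to 8 CG had ratios of 0.34 and 0.39, and 0.40 and 0.45. Those with 9 to 15 had 0.14 and 0.12, those with 16 to 25 had 0.11 and 0.17, and those with over 25 had 0.04 and 0.12. These CG ratios cover tested regions only, and not all 4368 regions with a start. Tested regions had to reach a minimum of reads, which a high pull-down makes easier. The CG ratios are therefore not comparable with the ratios by distance from the start. From the fewest to the most CG, 26.9%, 26.8%, 15.9%, 16.5% and 17.4% of the regions were called higher. This grouping was chosen after the values were seen and was not tested. Of all 32851 promoters 94.6% hold at least 1 CG, with a median of 7.

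The RefSeq promoters of the genes whose starts lie in the 3 highest and the 3 lowest start regions (mean of at least 25 reads, chosen after the values were seen) are shown so that their CG content can be seen, with the Il2ra promoter added. CG is in capitals, each sequence runs 5′ to 3′ on the gene's strand, and the searched letters are the same on both strands. On GRCm38.p6 the first 3 lie at chrX:7967861-7968160 (minus strand), chr7:141010695-141010994 (minus) and chr3:90612644-90612943 (plus).

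Gata1: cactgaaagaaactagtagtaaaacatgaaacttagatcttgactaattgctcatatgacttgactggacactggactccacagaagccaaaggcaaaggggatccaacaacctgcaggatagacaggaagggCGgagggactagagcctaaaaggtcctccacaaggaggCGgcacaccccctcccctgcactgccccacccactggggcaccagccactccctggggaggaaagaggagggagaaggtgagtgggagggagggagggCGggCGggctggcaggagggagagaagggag

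Ifitm3: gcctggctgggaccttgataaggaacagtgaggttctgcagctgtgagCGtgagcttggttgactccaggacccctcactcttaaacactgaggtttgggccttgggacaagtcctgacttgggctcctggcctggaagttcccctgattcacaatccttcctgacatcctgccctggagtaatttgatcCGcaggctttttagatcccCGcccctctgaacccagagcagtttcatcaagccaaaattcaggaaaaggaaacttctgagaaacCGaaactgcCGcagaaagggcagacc

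S100a6: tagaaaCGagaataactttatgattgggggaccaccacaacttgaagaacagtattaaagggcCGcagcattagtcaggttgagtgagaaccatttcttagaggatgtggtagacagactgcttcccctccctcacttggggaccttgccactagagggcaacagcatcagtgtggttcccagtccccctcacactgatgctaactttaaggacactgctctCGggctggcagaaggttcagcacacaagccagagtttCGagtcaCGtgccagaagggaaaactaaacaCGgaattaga

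The promoters of the 3 lowest eligible start regions lie at chr11:20741507-20741806, chr19:34255324-34255623 and chr9:104262881-104263180, all on the minus strand.

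Aftph: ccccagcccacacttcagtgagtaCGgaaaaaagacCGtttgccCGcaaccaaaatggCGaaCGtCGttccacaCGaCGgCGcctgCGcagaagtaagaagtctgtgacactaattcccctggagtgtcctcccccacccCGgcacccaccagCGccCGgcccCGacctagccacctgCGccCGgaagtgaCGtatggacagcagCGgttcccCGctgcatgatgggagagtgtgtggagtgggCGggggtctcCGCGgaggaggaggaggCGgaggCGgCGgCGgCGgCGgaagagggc

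Acta2: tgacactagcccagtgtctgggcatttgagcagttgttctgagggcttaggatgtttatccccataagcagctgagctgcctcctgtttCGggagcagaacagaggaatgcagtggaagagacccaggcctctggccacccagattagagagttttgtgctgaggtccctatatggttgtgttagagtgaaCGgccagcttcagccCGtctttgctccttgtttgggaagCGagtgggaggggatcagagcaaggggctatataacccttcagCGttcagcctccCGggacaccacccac

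Dnajc13: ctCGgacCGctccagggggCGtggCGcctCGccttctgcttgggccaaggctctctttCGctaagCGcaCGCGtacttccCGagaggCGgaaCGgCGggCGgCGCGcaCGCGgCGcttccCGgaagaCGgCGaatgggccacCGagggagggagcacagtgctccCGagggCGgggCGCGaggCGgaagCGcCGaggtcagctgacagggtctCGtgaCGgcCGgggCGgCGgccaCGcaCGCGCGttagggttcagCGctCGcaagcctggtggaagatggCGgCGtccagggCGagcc

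The Il2ra promoter lies at chr2:11642542-11642841 on the plus strand.

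Il2ra: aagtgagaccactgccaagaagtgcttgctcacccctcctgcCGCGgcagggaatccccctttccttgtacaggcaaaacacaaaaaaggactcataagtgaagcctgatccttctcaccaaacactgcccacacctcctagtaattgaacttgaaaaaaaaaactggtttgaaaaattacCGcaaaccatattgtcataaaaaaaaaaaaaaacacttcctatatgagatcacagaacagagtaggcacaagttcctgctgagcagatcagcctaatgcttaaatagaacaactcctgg

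The promoters of Gata1, Ifitm3, S100a6 and Il2ra hold 4, 5, 6 and 3 CG, and those of Aftph, Acta2 and Dnajc13 hold 28, 6 and 44, so that Acta2 among the lowest has as few as S100a6 among the highest. Gata1 encodes an erythroid transcription factor. Its region had 58.9 and 77.4 CPM in the pull-downs and 6.15 and 7.39 in the inputs (log2 3.32 ± 0.31 SE, adjusted p 1.8e-24, edgeR, n = 2 + 2). S100a6, a calcium-binding protein, had 72.8 and 86.9 CPM against 12.3 and 10.2 (log2 2.83). The region over Dnajc13, an endosomal co-chaperone, is 11250 bp wide and had 30.2 and 25.8 CPM against 56.4 and 58.2 (log2 -1.04 ± 0.23 SE, adjusted p 8.1e-05). The pull-downs lay above both inputs in the first cases and below them in the last, as the rule for showing them required. The regions of Aftph (log2 -0.78, adjusted p 0.049) and Acta2 (log2 -0.79, adjusted p 0.031) passed only narrowly. The wide regions are far longer than a promoter of this length, and Acta2's region is assigned to its neighbour Stambpl1 in the deposited table.

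By share of reads over gene parts, regions at the 5′ UTR stood highest. Regions that overlap a 5′ UTR took 11.9% and 12.3% of the pull-down reads and 10.1% and 9.99% of the input reads, a log2 ratio of shares of 0.24 and 0.30. The 3′ UTR followed at 0.12 and 0.15 and promoters without 5′ UTR at 0.07 and 0.10. Regions only in introns were at -0.14 and -0.16. Shares are taken over all regions, because narrow regions pass the minimum of 20 reads more easily when their pull-down is high. The medians of the tested regions relative to all tested regions carry that bias. They were 0.12 for the 5′ UTR, 0.16 for promoters without it, -0.01 for the 3′ UTR, -0.08 for other exons, -0.09 for introns, 0.16 for intergenic regions within 10 kb of a start and 0.11 for those farther away, so the 5′ UTR was not highest on this measure. Regions over 5000 bp wide had ratios of shares of 0.37 and 0.43, and those up to 500 bp -0.36 and -0.43. The median width was 2060 bp at the 5′ UTR, 1224.5 bp at the 3′ UTR, 869 bp for promoters without 5′ UTR and 661 bp for introns only. The part of width in the order of gene parts was not tested.

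Regions between genes ranked higher in TGFβ iTreg than in the other cell groups. Regions outside genes and farther than 10 kb from a start were at 0.04 and 0.02 in TGFβ iTreg, and at -0.115 to -0.19 in the 6 replicate pairs of the other groups. Within 10 kb of a start they were at 0.05 and 0.05, against -0.021 to -0.135. The 5′ UTR share was lower in TGFβ iTreg than in the others, which reached 0.36 to 0.45. In all 3 parts the TGFβ iTreg pairs did not overlap with any other pair. These are descriptions of 2 pairs per group, and the union of peaks may weigh toward the deeper libraries. Their part in the result was not tested. The X chromosome was at 0.20 and 0.29 in TGFβ iTreg and at 0.31 to 0.42 in the others.

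**Figure D1:**
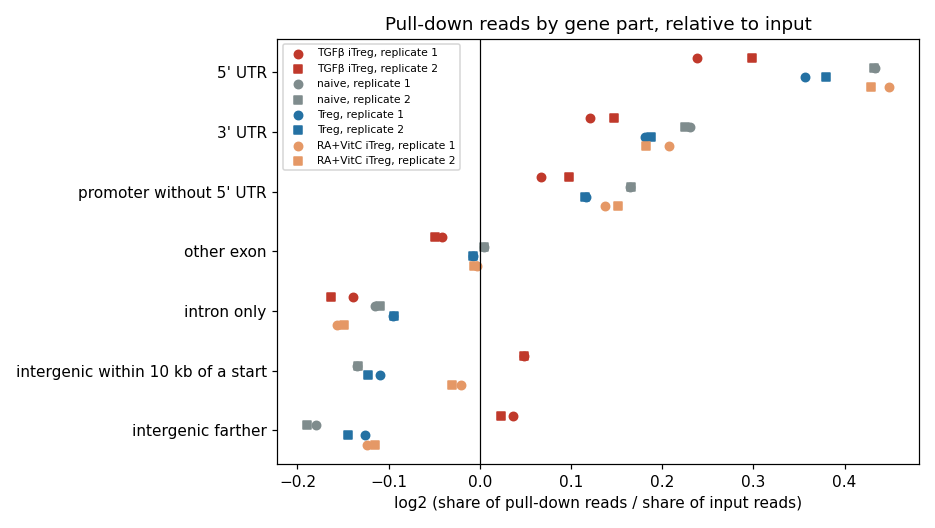
Horizontal axis: log2 of the share of pull-down reads over the share of input reads in each gene part. Each point is 1 replicate pair of 1 cell group; the TGFβ iTreg pairs lie above 0 in both kinds of intergenic regions, where all other pairs lie below 0.

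At the top of the ranking by gene stood Cish and the Foxp3 neighbour Flicr. Cish, which encodes a suppressor of cytokine receptor signalling, had 461 and 531 CPM in the pull-downs and 46.1 and 40.8 in the inputs (log2 3.52 ± 0.12 SE, adjusted p 6.2e-30). Nearly all of it came from 1 region of 15421 bp, chr9:107199560-107214980, from the 5′ UTR to the 3′ UTR, with 638 and 934 pull-down reads and 46 and 45 input reads. Flicr is a long non-coding RNA gene next to Foxp3. It had 129 and 163 CPM against 18.1 and 13.9 (log2 3.21 ± 0.19 SE, adjusted p 1.8e-19). In both genes every pull-down lay many times above every input.

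Other genes among the 12 highest are known from Treg and TGFβ biology. Tnfrsf18 encodes GITR, a costimulatory receptor abundant on Treg. It stood at 110 and 147 CPM against 28.05 and 30.2 (log2 2.15 ± 0.18 SE, adjusted p 7.6e-15). Lrrc32 encodes GARP, which holds latent TGFβ at the Treg surface, and had 419 and 442 CPM against 112 and 100.4 (log2 2.02 ± 0.09 SE, adjusted p 5.4e-24). Its signal was uneven. The region over the gene (15744 bp, chr7:105638978-105654721) was at 2.84, and 2 small regions downstream were at -0.68 and -0.93 with adjusted p of 0.45 and 0.18.

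Several of the highest genes have no established role in T cells that the lists cover. Ifitm3, an interferon-induced membrane protein that blocks virus entry, had 251 and 257 CPM against 29.0 and 36.7 (log2 2.94 ± 0.14 SE). All 4 of its tested regions were higher than input, at 1.703 to 4.085, and the strongest lies 15776 bp from the nearest start. Pitx1, a homeobox factor of hindlimb development, had 151 and 156 CPM against 28.05 and 37.5 (log2 2.21 ± 0.16 SE). Its signal came from 2 intergenic regions 34.7 kb and 42.7 kb away from the nearest start, at 1.84 and 3.01. Stfa3, a cysteine protease inhibitor, was at 2.28, Kbtbd11 at 2.28, the kinase gene Nek9 at 2.19, the G protein gene Gna15 at 2.15, Shroom3 at 2.15 and the calcium channel subunit gene Cacng6 at 2.15. The pull-downs and inputs did not overlap at any of these 12 genes, as the rule for naming them required.

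The 12 lowest genes moved less. Arhgap20 had 184 and 146 CPM in the pull-downs and 323 and 331 in the inputs (log2 -1.001 ± 0.09 SE, adjusted p 5.8e-13). Of its 11 tested regions 5 were lower than input and 0 higher. Itgb8, the integrin subunit that activates latent TGFβ, had 66.0 and 71.1 CPM against 130.3 and 119 (log2 -0.85 ± 0.13 SE, adjusted p 8.5e-07). Hdac9, a histone deacetylase gene, had 232 and 186 CPM against 363 and 380 (log2 -0.84). The muscle genes Ryr2 and Myom1 were at -0.76 and -0.74. Zranb1, Zc3h12c, Stk31, Cnr1, Mdga1 and Axin1 lay between -0.95 and -0.73. Axin1 had no single region past the threshold. With only regions that overlap a transcript, Stk31 (-0.97, adjusted p 0.26) and Cnr1 (-1.12, adjusted p 0.063) no longer passed.

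Kdm8 headed the lowest genes at -1.02 ± 0.13 SE (71.6 and 66.1 CPM against 146 and 133), and its input reads differ between cell groups. Of its 4 tested regions 1 passed, a stretch of 747 bp 5661 bp upstream of its start (chr7:132581782-132582528), at -1.67 ± 0.20 SE. That region had 45 and 47 pull-down reads and 109 and 101 input reads, or 281 input reads per kb where the median region has 9.69. In RA+VitC iTreg the inputs had 120 and 106 reads there, and those of naive cells and Treg 1 to 5. With all 8 inputs as background the region stood at -0.67 (adjusted p 0.073) and the gene at -0.42 (adjusted p 0.018). With only regions that overlap a transcript the gene stood at -0.54 (adjusted p 0.27).

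**Figure D2:**
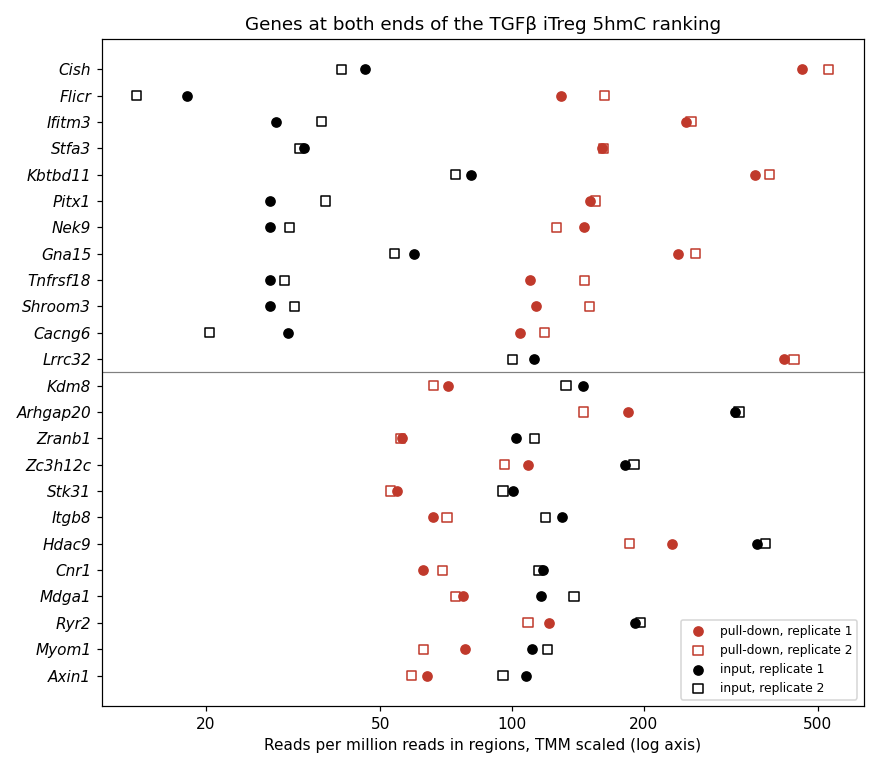
Horizontal axis: CPM, on a log axis, for each gene in the 2 pull-downs and 2 inputs of TGFβ iTreg. The 12 highest genes are above the grey line and the 12 lowest below it; at Cish the pull-downs stand at 461 and 531 and the inputs at 46.1 and 40.8.

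Among single regions with a mean of at least 50 reads, an exonic and intronic stretch of Nek9 was highest (chr12:86652154-86653156). It had 100 and 99 pull-down reads and 0 and 3 input reads, a fitted log2 of 5.48 that leans on so few input reads. A region near Ctcfl, the germline relative of CTCF, had 147 and 161 against 6 and 3 reads (log2 4.58 ± 0.31 SE), and the 3′ end of Ldah 87 and 108 against 5 and 3 (log2 4.09). Others of the 10 highest lay near Ifitm3, in Bckdhb, near Immp2l, near Trim33 and Chst12, over Cish and at Ccdc57 next to the Fasn start, at 3.56 to 4.09. Of the 10, 5 overlapped no transcript. All 10 had fewer input reads per kb than the median region (9.69), from 2.99 at Nek9 to 9.39 at Bckdhb. A narrow region can also reach the mean of 50 reads through its pull-down alone. The part of low input in this ranking was not tested. The Ctcfl region had nearly the same value in RA+VitC iTreg (4.41), whereas the Nek9 region stood at 2.05 there. Both are given side by side with no test.

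The lowest regions with that depth, after the Kdm8 region, are listed with their values only, since a region below input reaches that mean more easily when it is wide, whereas a narrow one can pass through its pull-down alone. One on the Y chromosome, assigned to Rbmy, had 58 and 85 pull-down reads and 85 and 123 input reads (log2 -1.02 ± 0.18 SE), and with 244 input reads per kb was also unusual. The 34532 bp over the 3′ part of Arhgap20 stood at -0.96. Regions of Ift80, Cdon, Lcp1, Jarid2, Tox, Mex3c and Scap were at -0.78 to -0.67. Lcp1 encodes an actin-bundling protein of leukocytes and Tox a factor of T cell exhaustion. The last 6 of these lost their call with DESeq2 and with no filter beyond 1 read, and Ift80 with no filter beyond 1 read.

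Most genes of the Treg list were higher than input. The list was chosen with earlier results of these data known and includes Cish, so its counts are a description only. Of 35 genes listed as Treg genes 32 were tested, 25 were higher than input and 2 lower (of all genes 18.8% and 9.47%). Their median was 0.53 above that of all genes. Il2ra, the α chain of the IL-2 receptor, had 950.2 and 1066 CPM against 235 and 271 (log2 1.99 ± 0.07 SE, adjusted p 9.8e-29). Ctla4, an inhibitory receptor, had 872 and 996 CPM against 328 and 304 (log2 1.57 ± 0.07 SE, adjusted p 4.1e-25). Ikzf4, which encodes the Treg factor Eos, was at 1.16, and Il10 at 1.06. The 2 lower genes were Itgb8 and Klrg1, a receptor of terminally differentiated Treg, with 36.5 and 29.4 CPM against 58.8 and 60.4 (log2 -0.87 ± 0.19 SE). The other 5 did not pass, among them Ikzf2 (-0.10) and Foxp3 under its own symbol (0.46, adjusted p 0.28). Deeply covered genes are called more easily, which bears on the counts of every list. Of 3735 genes with a mean of at least 100 reads, 2014 met the naming rule in either direction.

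The Il2ra locus was covered from end to end. All 6 tested regions were higher than input. The one 11.6 kb upstream of the start stood at 2.47, the next at 1.89, the promoter region (chr2:11561693-11563153) at 3.41 with 77 and 104 reads against 6 and 6, and the region over the start at 2.25. The gene body followed at 2.22 and the 3′ part at 0.78. Its RefSeq promoter, printed above, holds 3 CG. In naive cells these regions were at -2.09 to -0.05, and in Treg at -2.09 to 0.81. Over the start itself all other groups were below 0 (naive -1.76, Treg -2.09, RA+VitC iTreg -0.49), and TGFβ iTreg stood at 2.25.

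At Foxp3 the signal divided between the ends of the locus. The region over its first start, which the table assigns to Flicr (chrX:7156699-7163183, 6485 bp, promoter, 5′ UTR, exon and intron), had 162 and 260 pull-down reads and 14 and 15 input reads, at 3.36 ± 0.23 SE. The rest of the gene (chrX:7163959-7172345), assigned to Foxp3, had 24 and 41 against 13 and 21, at 0.45 with an adjusted p of 0.36. In Treg the order was the reverse, with -1.003 in the 5′ region and 1.81 in the 3′ region. RA+VitC iTreg stood at 1.64 and 1.74. Tested per gene symbol, Flicr was higher in TGFβ iTreg than in Treg by 3.49 ± 0.33 SE (adjusted p 1.2e-20) and Foxp3 lower by 1.35 ± 0.40 SE (a difference of -1.35, adjusted p 0.0075).

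Ikzf2, which encodes the Treg factor Helios, was mixed. Its region next to the start (8817 bp) had 94 and 171 against 37 and 51 reads, at 1.09 ± 0.20 SE. Of its regions farther in, 3 intronic or exonic ones were lower than input, at -1.15, -0.62 and -0.58, and of all 37 tested regions 2 were higher and 11 lower. In Treg those 3 regions stood at 1.06, 1.39 and 1.57. The gene's difference from Treg was -0.80 ± 0.06 SE (adjusted p 8.5e-28), and from naive cells 1.28 ± 0.07 SE (adjusted p 1.6e-56).

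**Figure D3:**
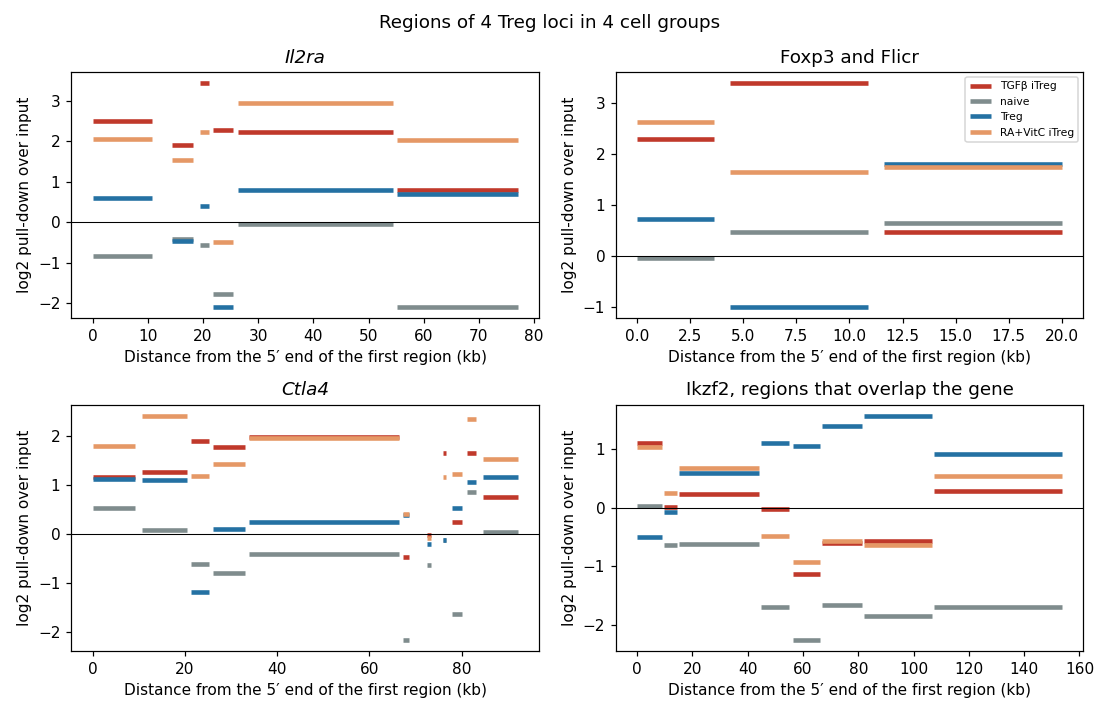
Horizontal axis: distance in kb from the 5′ end of the first region; vertical axis: log2 pull-down over input. Each bar is 1 region in 1 cell group; TGFβ iTreg are highest over the Foxp3 start region, where Treg stand at -1.003, and lowest in the 3′ region, where Treg stand at 1.81.

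Genes of the TGFβ pathway went both ways. Of 32 tested genes 12 were higher and 8 lower than input (37.5% and 25%, of all genes 18.8% and 9.47%). Their median was 0.17 above that of all genes. The inhibitors in the list ranged from above to below input. Smad7, a feedback inhibitor, had 483 and 530.0 CPM against 168 and 191 (log2 1.496 ± 0.08 SE, adjusted p 5.1e-21), and Ski and Skil were at 1.17 and 0.94. Pmepa1, another feedback inhibitor, was at 0.86, and the repressor gene Tgif1 at 0.50. The inhibitor gene Smad6 (0.28, adjusted p 0.21), the ubiquitin ligase gene Smurf1 (0.13, adjusted p 0.30) and Tgif2 (0.15, adjusted p 0.50) did not pass, and Smurf2, another ubiquitin ligase that turns over pathway proteins, was lower at -0.22 (adjusted p 0.039). Of the signal-carrying SMAD genes Smad3 was at 1.03 (688 and 774 CPM against 368 and 351), whereas Smad2 (-0.26, adjusted p 0.061) and Smad4 (-0.16, adjusted p 0.21) did not pass. The receptor genes parted, with Tgfbr2 at 0.58 and Tgfbr1 at -0.47 (173 and 168 CPM against 231 and 243, adjusted p 5.8e-05). The ligand gene Tgfb1 was at 0.52. Of the genes that handle latent TGFβ, Lrrc32 (2.02) and the integrin gene Itgav (0.73) were higher, and Itgb8 (-0.85) and Ltbp1 (-0.77) lower. Of the other lower genes, Smad1 and Smad5 (both -0.35) serve BMP signalling, and Zeb1 and Zeb2 (-0.31 and -0.39) are transcriptional repressors.

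Genes of T cell identity and of the naive state held high 5hmC as well. Of 28 T cell receptor and identity genes 23 were higher and 0 lower (of all genes 18.8% and 9.47%), with a median 0.59 above all genes. Thy1 was highest, at 221 and 279 CPM against 76.9 and 101.2 (log2 1.49 ± 0.12 SE), then the T cell receptor kinase gene Lck at 1.24. Cd4 stood at 0.59 and Cd3e at 0.42, and Cd8a at -0.19 (adjusted p 0.52). Of 20 naive and quiescence genes 18 were higher, with the largest relative median of the 14 lists, 0.75. Ccr7, the receptor that guides cells into lymph nodes, had 641 and 712 CPM against 239 and 243 (log2 1.49 ± 0.07 SE, adjusted p 4.4e-23). Pecam1 was at 1.25 and Klf2 at 0.92. Ccr7 was as high in naive cells (1.54), with a difference of -0.06 ± 0.10 SE.

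Of 37 activation genes 24 were higher than input and 0 lower (of all genes 18.8% and 9.47%), with a relative median of 0.48. Junb, a subunit of AP-1, had 48.5 and 52.2 CPM against 13.6 and 13.9 (log2 1.87 ± 0.24 SE). Socs1, a feedback inhibitor of cytokine signalling like Cish, had 176 and 225 CPM against 66.0 and 45.7 (log2 1.87). Pim1 stood at 1.73 and Irf4 at 1.36. Egr1 (-0.02) and Nr4a2 (-0.43) did not pass. In the cell cycle list 11 of 31 were higher and 0 lower (relative median 0.33), led by the inhibitor genes Cdkn1b at 1.24 and Cdkn2c at 1.19.

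Helper lineage genes gave 16 of 33 higher and 0 lower (of all genes 18.8% and 9.47%), with a relative median of 0.33. Il17a, the Th17 cytokine, was highest at 2.69 ± 0.38 SE, from a single region of 1295 bp with 31 and 69 pull-down reads and 5 and 6 input reads. Its relative Il17f was at 0.18 (adjusted p 0.79). Il24 stood at 2.13 and Ifng at 0.77, and the Th1 factor gene Tbx21 at -0.24, not past the threshold. Il17a was higher than in each other group, by 4.30 ± 0.73 SE over naive cells, 5.26 ± 0.76 SE over Treg and 2.79 ± 0.85 SE over RA+VitC iTreg (adjusted p 1.5e-07, 9.1e-10 and 0.017).

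Genes that write and erase DNA methylation were partly enriched. Of 26 tested 10 were higher and 0 lower (of all genes 18.8% and 9.47%), with a relative median of 0.34. Dnmt3l, a cofactor of DNA methyltransferases in germ cells, led at 2.49 ± 0.21 SE (87.8 and 91.1 CPM against 15.4 and 16.3), all of it from 1 tested region. Tet3 was at 0.98 (535 and 535 CPM against 288 and 257), Tet1 at 0.36, and Tet2 at 0.02 with an adjusted p of 0.89. Dnmt1 and Dnmt3a stood at 0.39 and 0.36. Gadd45b was at 1.12 and lost its call with DESeq2 and without the second input.

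Ribosomal protein genes, neuronal and Hox genes, and markers of other cells were given as reference. Of 63 ribosomal protein genes 10 were higher and 1 lower (15.9% and 1.59%), below the 18.8% and 9.47% of all genes. Their relative median was 0.19. Rps21 led at 2.04, but with only regions that overlap a transcript it stood at 0.10 (adjusted p 0.88), and Rpl24 went from 1.36 to 0.46 (adjusted p 0.23). The lower one, Rpl5 (-0.50, adjusted p 0.035), did not pass without any 1 of the 4 libraries. Neuronal genes had 0 of 17 higher and 1 lower, Erbb4 at -0.50, with a relative median of -0.24. Erbb4 lost its call with DESeq2, without the first pull-down and without the second input. None of 6 tested Hox genes passed with edgeR (relative median -0.13), of 39 listed.

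Among the markers of other immune cells, 4 of 12 B cell genes were higher (relative median 0.01), led by Pax5 at 1.41 and Cd79b at 1.00. Of all genes 18.8% were higher and 9.47% lower. In the myeloid list 4 of 11 were higher (0.21). Csf3r was at 3.79 from 23 and 19 pull-down reads and 0 and 2 input reads, and Spi1, the factor PU.1 also used in Th9 cells, at 1.69. Of 11 CD8 and NK cell genes 2 were higher and 1 lower (18.2% and 9.09%, near the shares of all genes), with a relative median of -0.07. Gzmb stood at 1.53, mostly outside its transcript (0.72, adjusted p 0.073, with only overlapping regions), and Eomes at 0.34. Klrd1 was lower at -1.16 and did not pass without the second input (-0.66, adjusted p 0.32). Pax5 lost its call without the first input, Cd79b without the second pull-down and with DESeq2, and Eomes without the second input, with DESeq2 and with library size. These are marks on DNA, which every cell holds, and not RNA levels, so a mark at such a gene gives no count of other cells in the culture, and their part was not tested.

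**Figure D4:**
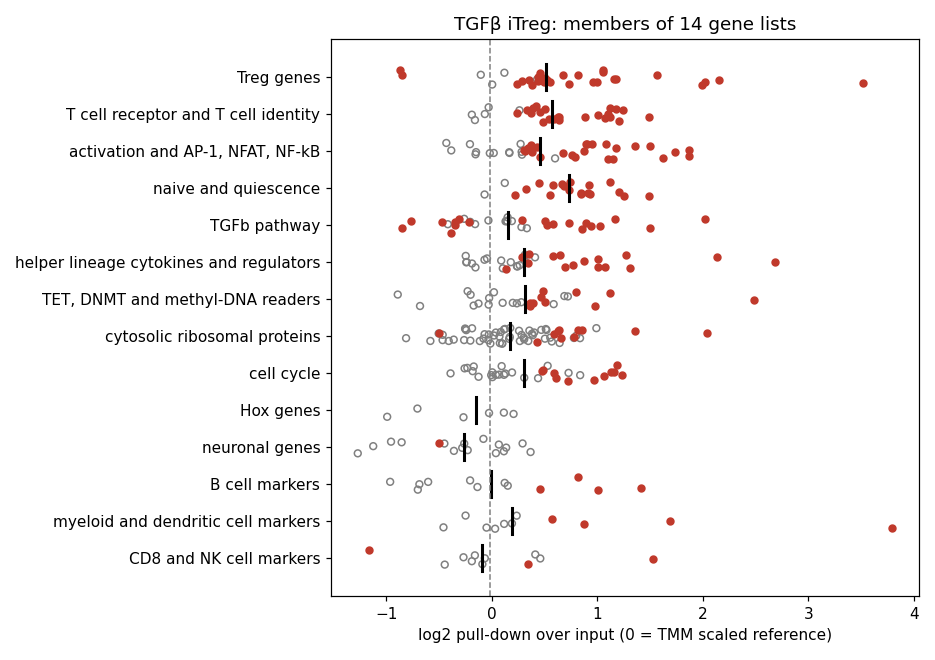
Horizontal axis: log2 pull-down over input in TGFβ iTreg for each tested member of 14 gene lists. Filled red points passed the threshold, open grey points did not, black bars are list medians and the dashed line is the median of all genes. The naive and quiescence list has 18 of 20 members filled, all higher, where 18.8% of all genes were higher.

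Enrichment over input was then compared with that in the other groups, as the difference of the log2 ratios in 1 fit of all 16 libraries over 14782 genes. The 3 comparisons share the TGFβ iTreg libraries. Against naive cells 2090 genes were higher (14.1%) and 1346 lower (9.11%), and against Treg 1604 (10.9%) and 978 (6.62%). Against RA+VitC iTreg 596 were higher (4.03%) and 750 lower (5.07%), but with library size in place of TMM 937 higher and 474 lower, so the higher share of called genes went from 44.3% to 66.4%. Without the second TGFβ iTreg input 643 genes were lower than in Treg, and without the first 381 were higher than in RA+VitC iTreg. Across 6659 genes with a mean of at least 100 reads, the span from the 5th to the 95th percentile of log2 enrichment was 1.63 in TGFβ iTreg, 1.78 in naive cells, 1.44 in Treg and 2.21 in RA+VitC iTreg. The pull-downs of Treg and of naive cells were the deepest, and these groups had spans of 1.44 and 1.78. The part of depth in the spans was not tested.

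The genes highest above naive cells were Pitx1 (by 4.61 ± 0.31 SE, adjusted p 6.3e-37), Stfa3 (4.56), Ifitm3 (4.25), Lifr (4.16), which encodes the receptor of leukaemia inhibitory factor, and Pou5f1-rs4 (3.71). Naive cells were well below input at each, from -2.59 at Lifr to -1.32 at Ifitm3. Pou5f1-rs4 is a sequence related to Pou5f1, so its reads may be shared with relatives. The genes lowest against naive cells were Tap1, a peptide transporter of antigen presentation (-1.55 ± 0.29 SE), the cytokine receptor gene Il27ra (-1.49), Plekhg2 (-1.39), Spns1 (-1.39) and the actin regulator gene Cfl1 (-1.38). Tap1 was still above input in TGFβ iTreg (0.99), and 2.54 in naive cells.

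Above Treg stood Pitx1 again (4.40 ± 0.30 SE), Pou5f1-rs4 (3.76), Flicr (3.49), Stxbp6 (3.42) and Lifr (3.16). Stxbp6, a regulator of vesicle fusion, was itself slightly below input in TGFβ iTreg (-0.37), and far below it in Treg (-3.79). Lowest against Treg was Arhgap20 (-1.65 ± 0.11 SE, adjusted p 3.5e-40), with -1.01 in TGFβ iTreg and 0.64 in Treg. Map3k11 (-1.39), the early response gene Egr1 (-1.36), Hsdl1 (-1.35) and Spns1 (-1.33) followed. Il2ra, Ctla4 and Lrrc32 were higher than in Treg, by 1.41, 0.99 and 0.78 (adjusted p 1.1e-35, 8.5e-22 and 2.7e-06).

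Against RA+VitC iTreg the 5 highest differences were smaller than those against the sorted cells, while the 5 lowest were of similar size. Trpc4ap (-1.51 ± 0.13 SE, adjusted p 8.3e-25) and the TGFβ feedback gene Pmepa1 (-1.46 ± 0.13 SE, adjusted p 3.3e-22) were lowest, then the zinc transporter gene Slc30a2 (-1.45), Fbxl19 (-1.44) and Nipal1 (-1.35). Pmepa1 stood at 0.85 here and reached 2.31 with RA and VitC. Il2ra and Lrrc32 were also lower, by differences of -0.34 (adjusted p 0.011) and -0.61 (adjusted p 0.0013). Higher than in RA+VitC iTreg were Pdzrn3 (1.37 ± 0.28 SE), the adhesion gene Cadm4 (1.34), Gtpbp8 (1.32), the polarity gene Crb2 (1.31) and Fam183b (1.30). At Pitx1, Lifr and Cish the difference did not pass (adjusted p 0.64, 0.34 and 0.15).

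**Figure D5:**
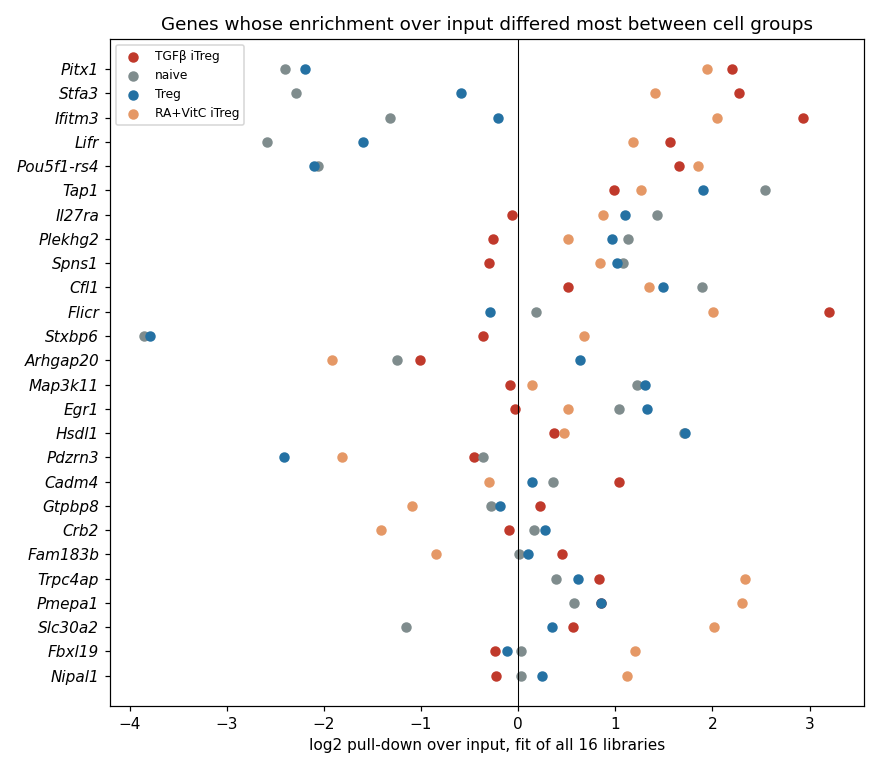
Horizontal axis: log2 pull-down over input per gene from the fit of all 16 libraries, 1 point per cell group, for the genes with the largest differences between TGFβ iTreg and another group. At Pitx1 both kinds of iTreg lie near 2 (2.204 and 1.95) and both sorted groups below -2 (-2.41 and -2.19).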

How the data were processed

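The deposited table holds raw read counts per region and library, whole numbers, with mm9 coordinates and gene annotation from the authors. They were counted in a union of broad peaks with a q cutoff of 0.01, as the deposited table is named. MACS2 2.1.0.20151222, SAMtools 1.7, Trim Galore 0.4.2 and bcl2fastq 2.20.0.442 appear in the submitters' processing notes. Neither the aligner nor the counter is given in the sources used here, nor is it said whether each library had its own peak calls.

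Counts of regions with at least 20 reads over the 4 libraries, and sums per assigned symbol, were fitted with edgeR 4.0.16 (R 4.3.3): TMM scaling, quasi-likelihood F test, Benjamini-Hochberg adjustment over all features, threshold 0.05. Every adjusted p and every SE in the text is from an edgeR fit of this kind. Where the text names another set of libraries or regions, the fit used that set. Differences between groups are interaction terms in a fit of 16 libraries with 8 groups (at least 80 reads). The steps were tested on simulated data with planted changes. DESeq2 1.42.0 was an alternative. Sums mix regions that may move in opposite directions, and the symbol is that of the nearest transcript.

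Named were the 12 highest and 12 lowest genes past the threshold (mean of at least 100 reads, no overlap of CPM, no predicted genes), the 10 highest and lowest regions (mean of at least 50 reads), 2 per end of each list and 5 per end of each difference. Further genes of the lists and the Il2ra, Foxp3 and Ikzf2 regions were chosen after their values were seen. Members and lists were chosen with earlier results of these data known. Pull-down and input of 1 replicate come from 1 DNA preparation, per the labels' protocols, so the numbers pair them. Their deviations from the group means correlated at -0.002 over 6659 genes.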

Additional observations from a re-analysis of the deposited data

Results flagged for a closer look

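Enrichment over input differed between TGFβ iTreg and each other group by a test of the difference itself, the interaction term of edgeR's quasi-likelihood fit. The genes that passed were 2090 higher and 1346 lower than in naive cells, 1604 higher and 978 lower than in Treg, and 596 higher and 750 lower than in RA+VitC iTreg. The same 4 TGFβ iTreg libraries enter all 3 comparisons.

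The named genes were flagged by the same test, and each value is the log2 enrichment in TGFβ iTreg minus that in the other group. Against naive cells the highest were Pitx1 (4.61), Stfa3 (4.56), Ifitm3 (4.25), Lifr (4.16), Pou5f1-rs4 (3.71). The lowest against naive cells were Tap1 (-1.55), Il27ra (-1.49), Plekhg2 (-1.39), Spns1 (-1.39), Cfl1 (-1.38). Against Treg the highest were Pitx1 (4.40), Pou5f1-rs4 (3.76), Flicr (3.49), Stxbp6 (3.42), Lifr (3.16), and the lowest Arhgap20 (-1.65), Map3k11 (-1.39), Egr1 (-1.36), Hsdl1 (-1.35), Spns1 (-1.33). The highest against RA+VitC iTreg were Pdzrn3 (1.37), Cadm4 (1.34), Gtpbp8 (1.32), Crb2 (1.31), Fam183b (1.30), and the lowest Trpc4ap (-1.51), Pmepa1 (-1.46), Slc30a2 (-1.45), Fbxl19 (-1.44), Nipal1 (-1.35). Spns1 against Treg did not pass without 1 TGFβ iTreg input (-1.14, adjusted p 0.06).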

How the results depend on the processing

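Counts of calls moved, while directions of the named items did not. The naming rule favours this outcome, since all named items had passed the threshold. Apart from list members they were also picked for no overlap. Their kept direction is therefore no measure of how stable other genes or regions are. All 100 named genes, regions and differences kept their direction under each alternative that gave them a value, and all 100 kept their call with the replicate block, which pairs pull-down and input of 1 DNA preparation. With that block 9284 regions were higher and 2338 lower, and 2668 and 1394 genes, and it moved no count by over 1.5 times. Lower regions came to 8542 with library size, 19 with DESeq2, 942 with no filter beyond 1 read, 3794 with at least 60 reads and 5952 with all 8 inputs as background; higher regions came to 3708 with DESeq2 and 5098 with at least 60 reads, where fewer regions are tested. Lower genes came to 3315 with library size, 244 with DESeq2 and 2584 with all 8 inputs, and higher genes to 1433 with DESeq2. With library size 937 genes were higher and 474 lower than in RA+VitC iTreg. Thinning every pull-down to the smallest pull-down and every input to the smallest input kept the call of all 30 named differences. DESeq2 ended 12 calls of named genes and regions, no filter beyond 1 read 7, and the sum over transcript-overlapping regions 9. The causes were not tested. Regions of 20 to 40 reads had a median SE of 0.58 and a median log2 of -0.26, and those of over 400 reads 0.17 and 1.04.

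Leaving out 1 library gave 6080 to 8984 higher and 915 to 1899 lower regions and 2025 to 2603 and 720 to 1370 genes. Lower than in Treg were 643 to 824 genes, and higher than in RA+VitC iTreg 381 to 556. The medians that follow are from the log2 CPM difference of the pair that was left, and not from the edgeR fit. Their ranges mix this change of method with the loss of libraries. The main value can lie outside them, as for the Hox, ribosomal and intron medians. With 1 pair of libraries left out, the medians relative to all tested ran from 0.0654 to 0.1285 (5′ UTR), 0.0654 to 0.1645 (promoter without it), -0.0520 to -0.0239 (3′ UTR), -0.1164 to -0.0875 (other exon), -0.12 to -0.11 (intron), 0.10 to 0.16 (intergenic within 10 kb of a start) and 0.0654 to 0.1010 (farther). By width they ran from 1.23 to 1.45 (up to 500 bp), 0.0000 to 0.0394 (500 to 1000 bp), -0.17 to -0.14 (1000 to 2000 bp), -0.0487 to -0.0252 (2000 to 5000 bp) and 0.26 to 0.38 (over 5000 bp). Only 2.76% of the regions up to 500 bp were tested, as narrow regions reach the minimum of reads more easily with a high pull-down. Over all regions up to 500 bp the log2 ratios of shares were -0.36 and -0.43. The range for this class therefore cannot show that such regions are enriched. By list the medians ran from 0.50 to 0.60 (T cell identity), 0.48 to 0.56 (activation), 0.16 to 0.29 (TGFβ pathway), 0.313 to 0.339 (DNA methylation genes), 0.257 to 0.260 (ribosomal), -0.28 to -0.27 (Hox), -0.0691 to 0.0366 (B cell), 0.20 to 0.31 (myeloid), 0.46 to 0.63 (Treg), 0.65 to 0.83 (naive and quiescence), 0.20 to 0.48 (helper lineage), 0.23 to 0.40 (cell cycle), -0.33 to -0.13 (neuronal) and -0.13 to 0.04 (CD8 and NK cell). The B cell and the CD8 and NK cell medians changed sign.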

Other observations

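The region upstream of Kdm8 (mm9 chr7:132581782-132582528) differed between inputs, which carry no pull-down. It held 101 to 109 input reads in TGFβ iTreg and 120 and 106 in RA+VitC iTreg, but 3 and 5 in naive cells and 4 and 1 in Treg. In CPM this is 95.1 in the 4 iTreg inputs and 2.23 in the 4 inputs of sorted cells (log2 difference 5.34 ± 0.22 SE, adjusted p 5.5e-63, edgeR). In this comparison, added after the data were seen, 2 of 127572 regions with at least 20 input reads were higher in iTreg and 0 lower, with 6565 at an unadjusted p under 0.05. The other is a region of 184 bp with no assigned gene, chr2:46137513-46137696, with 11 to 17 input reads in each iTreg input and 1 to 4 in the sorted cells (log2 3.002, adjusted p 2.4e-06). What sets the iTreg DNA apart at these places was not tested.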
